A study of Mus musculus with 32 samples.

Results

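Cells make cholesterol from acetyl-CoA through mevalonate, isoprenoid units, squalene and lanosterol. The enzymes of this route are transcribed under SREBP factors, which sit in the endoplasmic reticulum with their escort Scap and are held there by Insig proteins while sterols are plentiful. Dividing T cells need sterol for new membrane and isoprenoids for lipid anchors on proteins, and they are known to raise the pathway after antigen. A list of 27 genes was followed through these arrays. It holds 19 enzymes (Acat2 and Hmgcs1 up to HMG-CoA, Mvk, Pmvk, Mvd, Idi1, Fdps and Ggps1 from mevalonate to isoprenoids, Fdft1, Sqle and Lss to lanosterol, and Cyp51, Tm7sf2, Msmo1, Nsdhl, Hsd17b7, Ebp, Sc5d and Dhcr7 to cholesterol), 5 genes of SREBP control (Srebf1, Srebf2, Scap, Insig1 and Insig2) and 3 of sterol transport (Stard4, Npc1 and Npc2). Members were chosen by function, with earlier results of these data known, and matched by the gene symbol of the array annotation. Shares over all genes are therefore set beside the member counts as description only. Of the 27, 25 could be read among 22180 genes at 48 h and 24 among 17097 genes at 72 h, and 23 on both platforms. Acat2 had a probe set of its own on neither platform. Idi1 was read only at 72 h, because its 48 h probe set also names another gene, and Pmvk and Srebf1 were read only at 48 h.

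The study asked how helper T cells respond when an amino acid is scarce. CD4+ T cells came from lymph nodes of Balb/c DO11.10 mice, whose transgenic T cell receptor (TCR) recognises an ovalbumin (OVA) peptide. Every culture, controls included, also held peritoneal macrophages elicited with thioglycollate as antigen-presenting cells, and viable CD4+ singlets were sorted before RNA was taken. At 48 h, 3 arrays each held cells given OVA peptide in full medium, OVA peptide in full medium on macrophages that had been exposed overnight to the cytokines IL-4 and IL-10, at 10 ng/mL of each, and then washed, or OVA peptide in medium short of arginine, leucine or lysine (1% of the normal amount). Without peptide, the low leucine and low lysine media had 3 arrays each and the low arginine medium 2, and cells without peptide in full medium at 48 h were not analysed here. At 72 h, 3 arrays each held cells without peptide, with peptide, and with peptide on cytokine-pretreated macrophages, all in full medium. The labels call the pretreatment a way to induce arginase-1, an enzyme that degrades arginine. They do not give the age of the mice, or say whether replicates were separate animals or cultures, so p-values measure the spread between these arrays.

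All levels below are log2 RMA values, which can be compared for a gene between arrays of the same platform but not between genes, and differences between groups are on the log2 scale, given with the SE of the limma fit (n = 3 arrays a group unless stated). The 23 arrays at 48 h and the 9 at 72 h were of different designs and were never put in the same fit. A gene was called at a Benjamini-Hochberg adjusted p under 0.05 over all genes of the platform. In bulk RNA, fewer cells of a type and less RNA per cell cannot be told apart. Mean levels of 9 measured CD4 T cell marker genes lay between 9.83 and 10.78 on the 48 h arrays and between 9.16 and 10.74 on the 72 h arrays, against array medians of 5.445 to 5.75 and 3.87 to 4.04. The 16 macrophage markers averaged 5.77 to 6.92 on the 48 h arrays. At 72 h they averaged 5.09 to 6.92 without antigen and 3.61 to 4.16 with it. Of 12 mesothelial and stromal markers, the mean was 9.62 to 10.10 without antigen at 72 h, against 3.98 to 4.40 with antigen and 4.54 to 6.32 with antigen on pretreated macrophages.

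Promoter windows show what the members share in sequence. RefSeq start sites (assembly GRCm38.p6) gave windows of 250 bases before to 50 after the start for 22 of the 27 genes. The CCAAT letters, searched on both strands and the core of the box bound by NF-Y, a usual partner of SREBP, were present in the windows of 20 of these 22 genes, against 41.1% of all 27025 genes in the table and 42.3% of 17491 protein-coding genes. The 2 without it were Scap and Acat2. The GC box letters GGGCGG, a motif bound by Sp1, were in 20 of 22 as well, against 38.2% and 49.2%. A sterol response element in the form TCACNCCAC, again on both strands, was in 1 member, Hmgcs1, which is 4.55% of member genes against 1.44% of all genes. Its inner part CACNCCAC, which overlaps the longer form, was in 3 members (Hmgcs1, Insig1 and Acat2), 13.6% of member genes against 7.12% of all genes. A match of letters is a description and no measurement of binding.

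The 200 bases before the start are shown for 5 genes, chosen to set the member with the full element (Hmgcs1), members with several CCAAT letters (Mvk and Msmo1) and the feedback gene Insig1 beside Scap, which has neither motif. They lie at chr13:119690151-119690350 (plus strand), chr5:114444069-114444268 (plus), chr8:64733579-64733778 (minus), chr5:28071212-28071411 (plus) and chr9:110333088-110333287 (plus) of GRCm38.p6, and read 5′ to 3′ with sterol element letters and CCAAT or its complement ATTGG in capitals.
Hmgcs1: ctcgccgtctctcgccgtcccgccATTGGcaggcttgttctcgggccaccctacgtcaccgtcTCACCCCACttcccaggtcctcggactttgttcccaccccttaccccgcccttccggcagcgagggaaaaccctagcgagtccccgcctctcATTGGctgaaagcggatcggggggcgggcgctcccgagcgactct
Mvk: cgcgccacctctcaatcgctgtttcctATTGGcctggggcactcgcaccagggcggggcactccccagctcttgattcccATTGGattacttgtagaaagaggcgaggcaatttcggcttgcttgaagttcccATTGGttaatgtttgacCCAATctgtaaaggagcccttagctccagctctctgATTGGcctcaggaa
Msmo1: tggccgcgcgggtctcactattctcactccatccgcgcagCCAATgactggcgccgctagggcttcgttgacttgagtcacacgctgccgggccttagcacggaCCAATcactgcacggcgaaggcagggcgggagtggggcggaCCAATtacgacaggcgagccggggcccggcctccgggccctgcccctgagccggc
Insig1: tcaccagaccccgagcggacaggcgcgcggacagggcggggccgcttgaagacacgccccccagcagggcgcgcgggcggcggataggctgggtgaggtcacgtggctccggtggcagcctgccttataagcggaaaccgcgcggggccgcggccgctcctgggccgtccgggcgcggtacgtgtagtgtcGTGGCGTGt
Scap: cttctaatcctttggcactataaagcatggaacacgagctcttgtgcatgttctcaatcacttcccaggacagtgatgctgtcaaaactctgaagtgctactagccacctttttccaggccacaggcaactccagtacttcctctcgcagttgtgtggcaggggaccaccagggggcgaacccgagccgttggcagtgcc

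The Mvk stretch carries the CCAAT letters 5 times and the Msmo1 stretch 3 times. Insig1 has only the inner sterol element here, on the reverse strand close to the start. Of the 18 members that were lower in every altered condition at 48 h (below), 14 had a window and all 14 held the CCAAT letters. Of the 5 that were lower in none, 4 had a window and 3 of them held the letters too, all but Scap.

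In full medium, antigen raised the sterol enzymes at 72 h. Of 24 measured members 17 were called higher, against 20.7% of all genes, and 1 lower, against 17.4%, and the median difference was 0.81 for members and 0.02 for all genes. The rise was spread over the route: all 8 enzymes from lanosterol to cholesterol were called, with 2 of 3 from squalene to lanosterol and 3 of 5 from mevalonate to isoprenoids. Of the 18 calls, 11 were kept under every alternative run. Hsd17b7 lost its call with quantile normalization (adjusted p = 0.0633), with only the compared groups fitted (0.0502), with stretches of consecutive submitter sample numbers as a block (0.0598) and in 5 of 6 fits that left out an array, Dhcr7 and Hmgcs1 lost theirs in 3 of these fits and Tm7sf2 in 1. Mvd, which makes isopentenyl diphosphate, stood at 5.23, 6.08 and 5.95 without antigen and at 7.56, 8.06 and 8.42 with it. The groups lay far apart, and Mvd had the largest rise of all members, 2.26 ± 0.32 (4.79-fold, adjusted p = 0.000182).

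Fdps, which joins isoprenoid units into farnesyl diphosphate, measured 9.33, 9.54 and 9.81 without antigen and 11.16, 11.13 and 11.47 with it, a rise of 1.69 ± 0.18 (adjusted p = 1.81e-05). Idi1, the isomerase just before it, measured 8.54, 8.34 and 8.76 without antigen and 9.73, 10.48 and 10.40 with it, a rise of 1.66 ± 0.23 (adjusted p = 0.000134). Neither gene had an antigen array as low as any array without antigen. Hmgcs1, which makes HMG-CoA, was at 6.0, 6.01 and 5.37 without antigen and at 6.16, 7.03 and 7.74 with it. Its antigen arrays were spread widely and the lowest was only just above the controls, with a rise of 1.18 ± 0.35 (adjusted p = 0.0194). Sqle, the squalene epoxidase, rose by 0.62 ± 0.20 (adjusted p = 0.0325), and Cyp51, which demethylates lanosterol, by 1.08 ± 0.22 (adjusted p = 0.00223). The Sqle call was lost with quantile normalization (adjusted p = 0.0702), with those stretches as a block (0.074) and in 5 of 6 fits that left out an array, at 0.43 (adjusted p = 0.145) without antigen replicate 3.

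Among control genes, Srebf2, the factor most tied to sterol synthesis, and Insig1, a sterol-sensitive brake that is itself an SREBP target, rose with antigen at 72 h. Srebf2 was at 7.33, 7.33 and 6.79 without antigen and at 8.72, 8.03 and 9.01 with it, a rise of 1.44 ± 0.28 (adjusted p = 0.00154). A second Srebf2 probe set differed by -0.14, and with the mean over probe sets the rise was 0.65 and not called (adjusted p = 0.0965), so the result for this gene rests on 1 probe set. Sc5d, called at 0.83 ± 0.19, likewise lost its call with the mean over its probe sets (0.29, adjusted p = 0.229). Insig1 was at 7.65, 7.61 and 7.70 without antigen and at 8.40, 8.86 and 8.88 with it, a rise of 1.06 ± 0.22 (adjusted p = 0.00231). Both antigen groups lay wholly above their controls, in a comparison where 46.7% of all genes had no overlap.

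Transport genes were split. Stard4, a cytosolic sterol carrier, measured 7.82, 7.65 and 7.73 without antigen and 9.15, 9.40 and 9.57 with it, and rose by 1.64 ± 0.18 (adjusted p = 3.11e-05). Npc1, which exports cholesterol from lysosomes, measured 5.60, 6.0 and 5.19 against 5.74, 5.36 and 6.07, with overlapping arrays and a difference of 0.13 (95% interval -0.46 to 0.72, adjusted p = 0.766). Its soluble partner Npc2 was the only member called lower, at 12.38, 12.48 and 12.57 without antigen and 12.11, 11.53 and 11.84 with it (-0.65 ± 0.13, adjusted p = 0.00194). In the same comparison 11 of 16 macrophage markers and 12 of 12 mesothelial and stromal markers were called lower and 11 of 11 dividing-cell genes higher. The part of these other cells and of division in the members' differences was not tested.

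**Figure D1:**
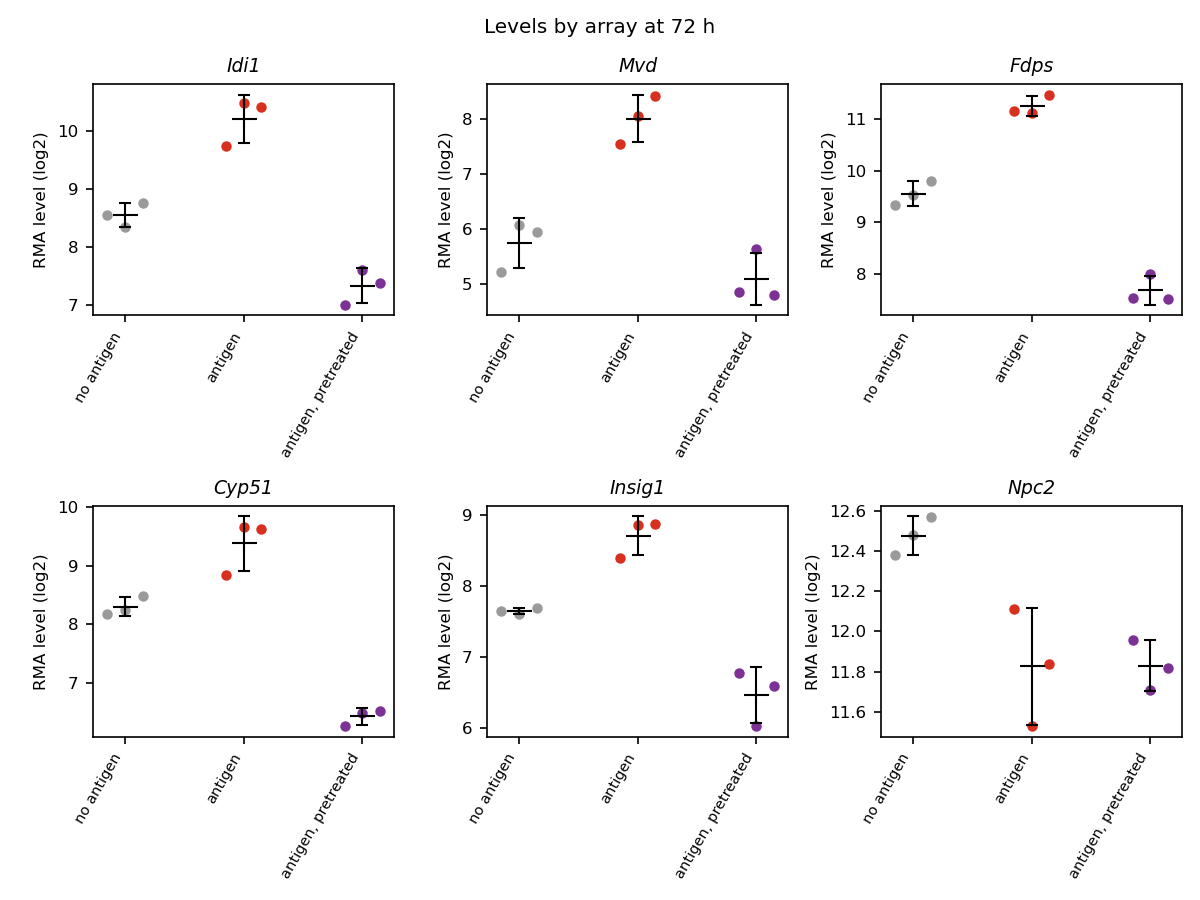
RMA levels (log2) of 6 members on each 72 h array in 3 groups, no antigen, antigen, and antigen on macrophages pretreated with IL-4 and IL-10; points are arrays, bars are the mean and SD of 3. For Idi1, Fdps, Cyp51 and Insig1 the pretreated arrays lie below both other groups, while Npc2 is highest without antigen.

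On pretreated macrophages the same stimulus left the pathway lower than in cells that had seen no antigen. Against antigen alone at 72 h, 19 of 24 members were called lower, against 5.91% of all genes, and none was called higher (0 at an unadjusted p under 0.05 as well, limma), with a member median of -1.87 and an all-gene median of 0.02. Against cells without antigen, 17 of 24 were lower, against 15.6% of all genes, with a member median of -0.91. Of these 17 calls, 13 were kept under every alternative run. Stard4 and Msmo1 lost theirs as given below. Dhcr7 lost its call under 4 alternative settings (adjusted p = 0.0533 to 0.119, limma) and in 3 of 6 fits that left out an array. Lss lost its call in 4 of these fits and with stretches of consecutive submitter sample numbers as a block (0.0662). In the comparison with cells without antigen, 12 of 12 mesothelial and stromal markers were lower, with a list mean of 5.20 against 9.88. Of macrophage markers 9 of 16 were lower, at 4.08 against 6.07. Of CD4 T cell markers 7 of 9 were higher, at 10.53 against 9.30, and of dividing-cell genes 8 of 11. The part of these in the members' differences was not tested. For 15 members every antigen array was above every array without antigen, and each of those above every pretreated array. Across all genes 0.591% had this order.

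The fall was largest for Fdps. Its pretreated arrays were at 7.53, 8.0 and 7.52, below the 6 others by more than a log2 unit, and the difference from antigen alone was -3.57 ± 0.18 (11.9-fold lower, adjusted p = 4.62e-06). Cyp51, at 6.26, 6.49 and 6.52 against 8.85, 9.67 and 9.63, fell by 2.96 on the log2 scale (SE 0.22, adjusted p = 6.56e-05), and Mvd, at 4.86, 5.64 and 4.80, by 2.91 (SE 0.32, adjusted p = 0.000517). Idi1 at 7.0, 7.59 and 7.38 and Hmgcs1 at 4.32, 4.43 and 4.33 also lay wholly below the arrays without antigen, at -2.88 and -2.62 against antigen alone. Hmgcs1 was read by 1 probe set, and its pretreated values were close to the array medians of 3.87 to 4.04. Of the enzymes only Ggps1, which makes geranylgeranyl diphosphate from the product of Fdps, was not called (0.22, 95% interval -0.36 to 0.80), and its 3 probe sets differed in sign.

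Insig1 on pretreated macrophages was at 6.78, 6.03 and 6.60, a fall of 2.24 on the log2 scale (SE 0.22, adjusted p = 0.000261), and Stard4 at 7.01, 7.51 and 7.0, a fall of 2.20 (SE 0.18, adjusted p = 9.43e-05). Both were also below the arrays without antigen. There the Stard4 call was lost with centred arrays (adjusted p = 0.0726), with only the compared groups fitted (0.0607), with the mean over its probe sets (-0.38, adjusted p = 0.268) and in 5 of 6 fits that left out an array, and the Msmo1 call with the mean over its probe sets (-0.41, adjusted p = 0.182). Srebf2, at 7.66, 7.02 and 7.11, fell by 1.32 (SE 0.28, adjusted p = 0.0147) but overlapped the arrays without antigen, and with the mean over its probe sets it was -0.77 and not called (adjusted p = 0.13). The Srebf2 call was also lost in 3 of 6 fits that left out an array (adjusted p = 0.052 to 0.0745, limma). Of the 19 calls against antigen alone, 17 were kept under every alternative run, all but those of Srebf2 and Ebp. Scap (-0.01), Insig2 (-0.11), Npc1 (-0.06) and Npc2 (0.00) were not called. Of 11 dividing-cell genes 5 were called lower on pretreated macrophages, and their mean was 8.80 ± 0.96 (SD) against 10.22 ± 0.19 with antigen alone and 6.79 ± 0.15 without antigen. The pathway enzymes kept another order: their mean was 6.62 ± 0.07 on pretreated macrophages, 8.64 ± 0.32 with antigen alone and 7.64 ± 0.04 without antigen.

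At 48 h, antigen in full medium stood alone. For 20 of the 25 measured members all 3 full-medium arrays were above the other 20 arrays, a pattern that 3.21% of all genes had. The 5 outside it were Ggps1, Scap, Insig2, Npc1 and Npc2. The mean of the 17 measured enzymes was 8.54 ± 0.15 (SD) in full medium with antigen. With antigen it was 7.25 ± 0.02 in low leucine, 7.24 ± 0.21 in low lysine, 7.02 ± 0.04 in low arginine and 6.90 ± 0.15 on pretreated macrophages, and without antigen 6.57 to 6.62 in the 3 low media. Low leucine overlapped low lysine and low arginine overlapped pretreated macrophages. Every array with antigen, at 6.76 or more, was above every array without it, at 6.68 or less.

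**Figure D2:**
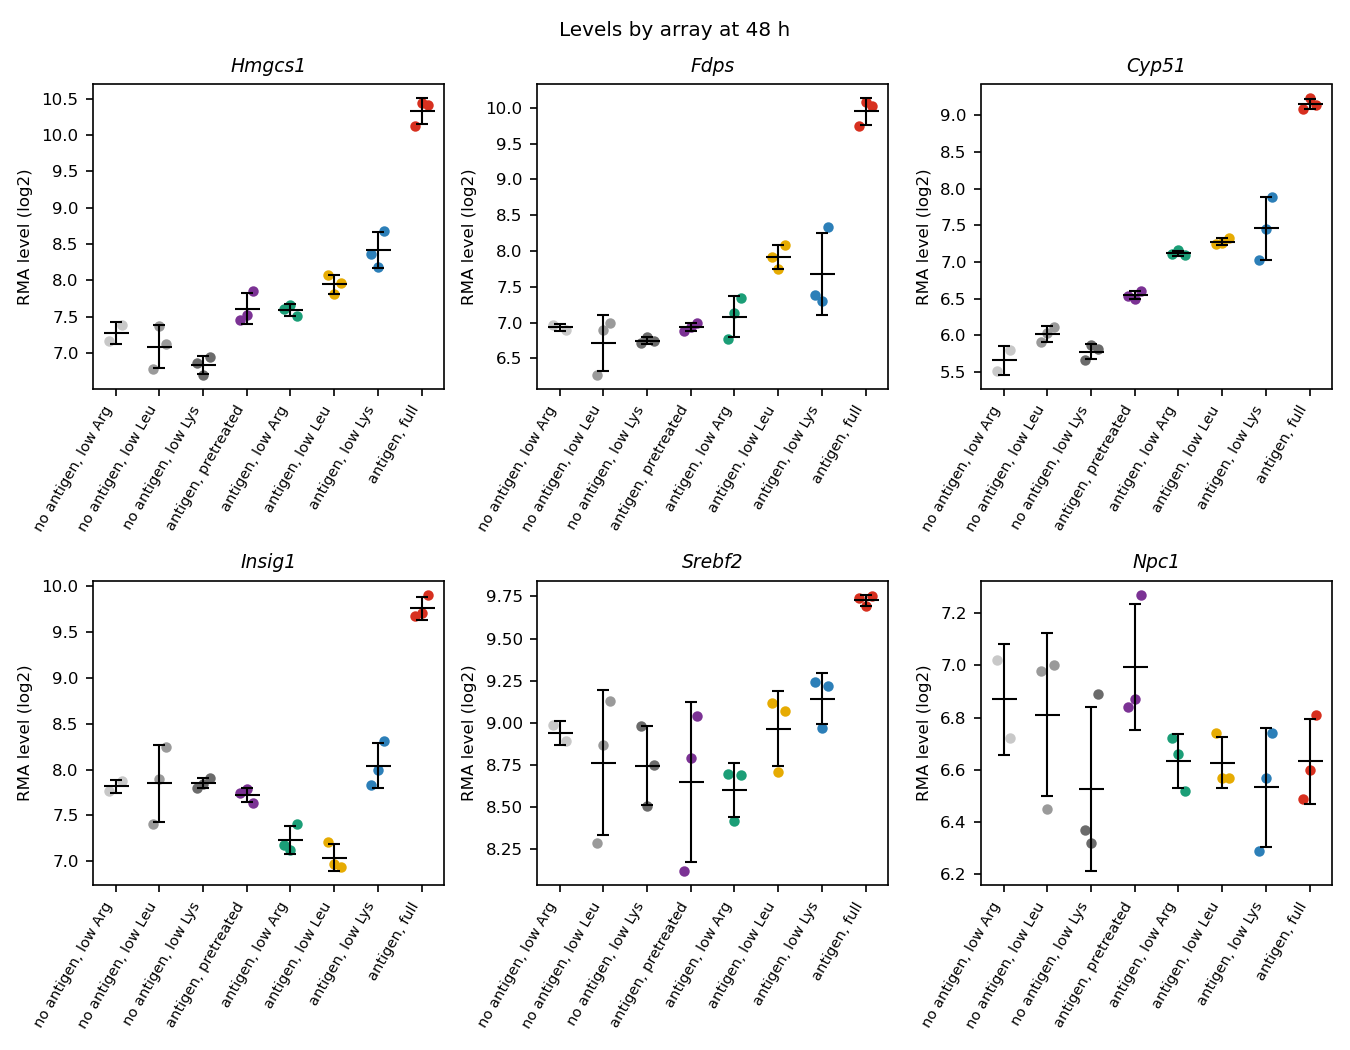
RMA levels (log2) of 6 members on each 48 h array, by group; points are arrays, bars the mean and SD of 3 arrays (2 without antigen in low arginine). Full-medium antigen arrays are above all others for Hmgcs1, Fdps, Cyp51, Insig1 and Srebf2, and not for Npc1; Insig1 in low arginine and low leucine lies below its arrays without antigen.

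Most of the measured enzymes were lower in each of the 4 altered conditions. Called lower against antigen in full medium were 20 of 25 members on pretreated macrophages (5.93% of all genes), 19 in low arginine (3.17% of all genes), 19 in low leucine (1.56%) and 18 in low lysine (6.24%). No member was called higher in any of the 4, where 1, 1, 1 and 0 members were higher at an unadjusted p under 0.05 (limma). The member medians were -1.30, -1.34, -1.24 and -1.14, beside all-gene medians between 0.00 and 0.02. These 4 comparisons share their full-medium arrays. The low-medium arrays lie in other stretches of consecutive submitter sample numbers than the full-medium arrays, so stretch and medium cannot be told apart. In all, 18 members were lower in each of the 4, as were 0.455% of all genes, Srebf2 in 3, Ebp in 1 and 5 in none. The 18 were Hmgcs1, 4 of 5 measured genes from mevalonate to isoprenoids, all 3 genes from squalene to lanosterol, 7 of 8 from lanosterol to cholesterol, and Srebf1, Insig1 and Stard4. Under every alternative run, 19 of 20 calls were kept on pretreated macrophages, 18 of 19 in low arginine, 16 of 19 in low leucine and 15 of 18 in low lysine. Among the 18, Mvk lost its call under some alternatives in each low medium. Tm7sf2 did so in low leucine, in low lysine and on pretreated macrophages, and Hsd17b7 in low lysine. Pretreatment was measured at both times on separate arrays: of 23 members on both platforms, 18 were lower at both, 5 at neither and 0 at only 1, and of 15938 genes on both platforms 2.74% were lower at both.

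Hmgcs1 had its full-medium arrays at 10.12, 10.44 and 10.42. It measured 7.46, 7.53 and 7.85 on pretreated macrophages, 7.61, 7.66 and 7.51 in low arginine, 8.07, 7.81 and 7.96 in low leucine and 8.37, 8.19 and 8.68 in low lysine. Without antigen its arrays were between 6.70 and 7.38. Every array outside full medium lay more than 1 log2 unit below it, and the changes were -2.71, -2.73, -2.38 and -1.91 on the log2 scale (SE 0.16 each, adjusted p = 1.44e-10, 1.65e-10, 1.71e-09 and 7.9e-08). The fall in low arginine was 6.65-fold.

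Fdps had full-medium arrays at 9.74, 10.08 and 10.03. It measured 6.89, 6.94 and 6.99 on pretreated macrophages, 6.77, 7.14 and 7.34 in low arginine, 7.92, 7.75 and 8.09 in low leucine and 7.39, 7.30 and 8.34 in low lysine. On pretreated macrophages and in low arginine it overlapped the arrays without antigen (6.27 to 6.99), and it did not in low leucine or low lysine. The changes were -3.01, -2.87, -2.03 and -2.27 on the log2 scale (SE 0.22 each, adjusted p = 5.11e-09, 1.2e-08, 2.98e-06 and 7.96e-07), with the first the largest fall of any member at 48 h. Pmvk, the kinase that makes mevalonate diphosphate, changed by -2.26, -1.86, -1.25 and -1.73, and Mvd by -1.23, -1.69, -1.36 and -1.49. Mvk, the first kinase, changed by -0.77, -0.58, -0.50 and -0.52, the smallest falls of any called enzyme in the 3 low media. In low leucine the Mvk call was lost with quantile normalization (-0.41, adjusted p = 0.109, limma), with centred arrays (0.0662) and in 5 of 6 fits that left out an array. Such fits also lost it in 2 of 6 in low arginine and 3 of 6 in low lysine.

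From squalene on, Sqle had full-medium arrays at 9.05, 9.24 and 9.29. It measured 7.69, 7.48 and 7.88 on pretreated macrophages, 7.32, 7.39 and 7.84 in low arginine, 7.95, 7.87 and 7.70 in low leucine and 7.75, 8.11 and 8.30 in low lysine, with arrays without antigen at 6.14 to 7.02. It was thus lower than in full medium and still above cells without antigen in all 4 conditions. Its changes were -1.51, -1.68, -1.35 and -1.14 on the log2 scale (SE 0.19 each, adjusted p = 1.85e-05, 5.71e-06, 9.11e-05 and 0.000657). Fdft1, the squalene synthase, changed by -1.74, -1.34, -1.18 and -1.38 and Lss, which closes the sterol rings, by -2.22, -2.08, -1.78 and -1.69.

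Cyp51 had full-medium arrays at 9.09, 9.23 and 9.14. It measured 6.53, 6.50 and 6.61 on pretreated macrophages, 7.11, 7.16 and 7.09 in low arginine, 7.24, 7.26 and 7.33 in low leucine and 7.03, 7.45 and 7.89 in low lysine, with arrays without antigen at 5.52 to 6.12. The pretreated arrays were below those of every low medium. The changes were -2.61, -2.04, -1.88 and -1.70 on the log2 scale (SE 0.15 each, adjusted p = 1.44e-10, 1.2e-08, 5.4e-08 and 3.5e-07). Msmo1, Nsdhl and Hsd17b7, which remove the methyl groups of the ring, fell in the 4 conditions, with changes from -2.08 to -1.05. Sc5d and Dhcr7, which act on ring double bonds at the end of the route, changed by -1.34 to -0.95, and Tm7sf2, a sterol reductase, by -1.01 to -0.74. Ebp, a sterol isomerase, fell by 1.0 on the log2 scale (SE 0.18) on pretreated macrophages (adjusted p = 0.00106) and not called in the low media, at -0.60, -0.56 and -0.44 (adjusted p = 0.0628, 0.129 and 0.136).

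**Figure D3:**
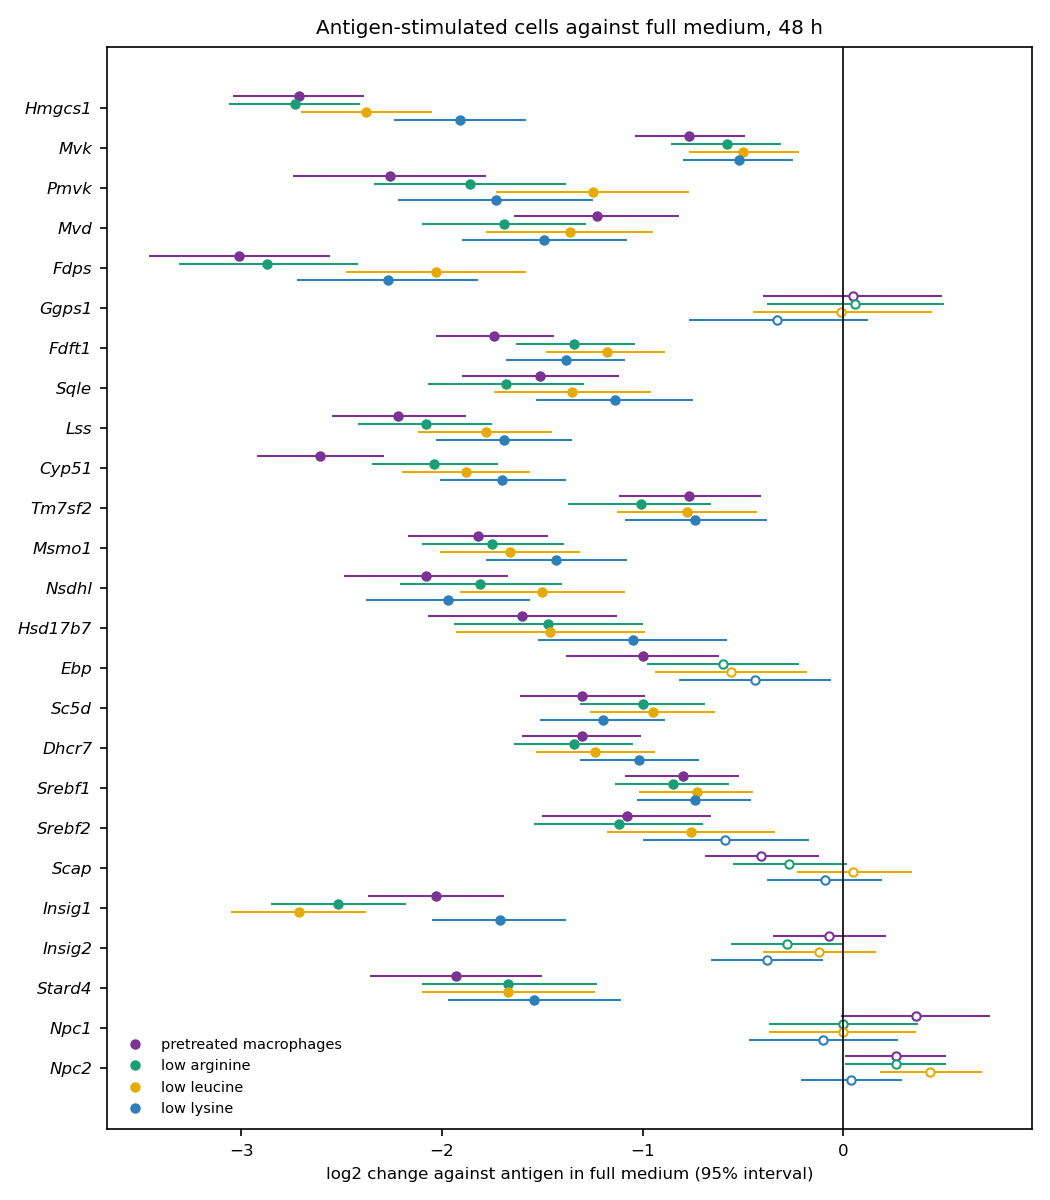
Log2 change of 25 members with antigen on pretreated macrophages or in low arginine, leucine or lysine, against antigen in full medium at 48 h; points are limma estimates, lines 95% intervals, filled points called at an adjusted p under 0.05. Most members lie left of 0 in all 4 conditions, and Ggps1, Scap, Insig2, Npc1 and Npc2 have only open points.

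Both SREBP genes were lower, by less than most enzymes. Srebf1, at 8.23, 8.15 and 8.03 in full medium, was between 7.13 and 7.57 in the 4 altered conditions, which did not reach full medium, and changed by -0.80, -0.85, -0.73 and -0.74 on the log2 scale (SE 0.14 each, adjusted p = 0.000591, 0.000469, 0.00248 and 0.0017). Srebf2, at 9.74, 9.69 and 9.75 in full medium, measured 8.12, 8.79 and 9.04 on pretreated macrophages, 8.70, 8.42 and 8.69 in low arginine, 9.12, 8.71 and 9.07 in low leucine and 9.24, 8.97 and 9.22 in low lysine. Arrays without antigen were at 8.29 to 9.13. Pretreated replicate 1 lay below that range, low lysine replicates 1 and 3 lay above it, and the others lay within it. Its changes were -1.08, -1.12 and -0.76 (SE 0.20 each, adjusted p = 0.00133, 0.00132 and 0.0412), and low lysine was not called (-0.59, adjusted p = 0.0733). The low leucine call was lost in all 6 fits that left out an array (adjusted p = 0.0687 to 0.241), with centred arrays (0.0677) and without the intensity trend (0.051).

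Insig1 departed most among control genes. It was at 9.67, 9.70 and 9.90 in full medium, 7.74, 7.79 and 7.64 on pretreated macrophages, 7.18, 7.12 and 7.41 in low arginine, 7.21, 6.97 and 6.94 in low leucine and 7.83, 7.99 and 8.31 in low lysine. Its arrays without antigen were at 7.77 and 7.87 in low arginine, 7.41, 7.90 and 8.24 in low leucine and 7.80, 7.84 and 7.91 in low lysine. Low arginine and low leucine with antigen therefore lay below the same media without antigen. The changes from full medium were -2.03, -2.52, -2.71 and -1.71 on the log2 scale (SE 0.16 each, adjusted p = 2.74e-08, 8.9e-10, 4.67e-10 and 7.96e-07).

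Of the transport genes Stard4, at 8.35, 8.28 and 8.49 in full medium, was between 6.06 and 7.14 in the 4 altered conditions and changed by -1.93, -1.67, -1.67 and -1.54 on the log2 scale (SE 0.21 each, adjusted p = 3.24e-06, 2.45e-05, 2.61e-05 and 7.73e-05). Its pretreated replicate 3, at 7.11, stood apart from 6.15 and 6.06. Npc1 measured 6.49, 6.60 and 6.81 in full medium, 6.84, 6.87 and 7.27 on pretreated macrophages and 6.29 to 6.74 in the low media, and did not pass the test in any of the 4. The 95% intervals ran from -0.01 to 0.73 on pretreated macrophages and from -0.37 to 0.37 in low arginine. Their lower ends are smaller in size than the smallest called fall of an enzyme, -0.50 for Mvk in low leucine. That Mvk call was itself lost under several alternatives, as given above. Npc2 (0.26, 0.26, 0.43 and 0.04), Scap (-0.41, -0.27, 0.05 and -0.09), Insig2 (-0.07, -0.28, -0.12 and -0.38) and Ggps1 (0.05, 0.06, -0.01 and -0.33) did not pass it either.

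Genes of division were called lower in some of these conditions and not in others. Of 11 dividing-cell genes none was called lower in low arginine or low leucine (1 and 3 at an unadjusted p under 0.05, limma), where their mean was 9.26 ± 0.11 and 8.96 ± 0.15 (SD) against 9.39 ± 0.06 in full medium. All 11 were lower in low lysine, at 7.43 ± 1.22 with arrays from 6.15 to 8.57, and on pretreated macrophages, at 7.38 ± 0.90 with arrays from 6.71 to 8.40. Without antigen the mean was 5.44 to 5.59. In low arginine and in low leucine 19 members were called lower and no division gene was. The division mean in low leucine, with arrays from 8.79 to 9.08, still lay below full medium, at 9.35 to 9.46. In low lysine and on pretreated macrophages both members and division genes were called lower. The part of division in the members' falls was not tested in any of these conditions. Leaving out any 1 low lysine or full-medium array left 16 to 18 members called in low lysine, and any 1 pretreated or full-medium array 19 to 21 on pretreated macrophages.

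**Figure D4:**
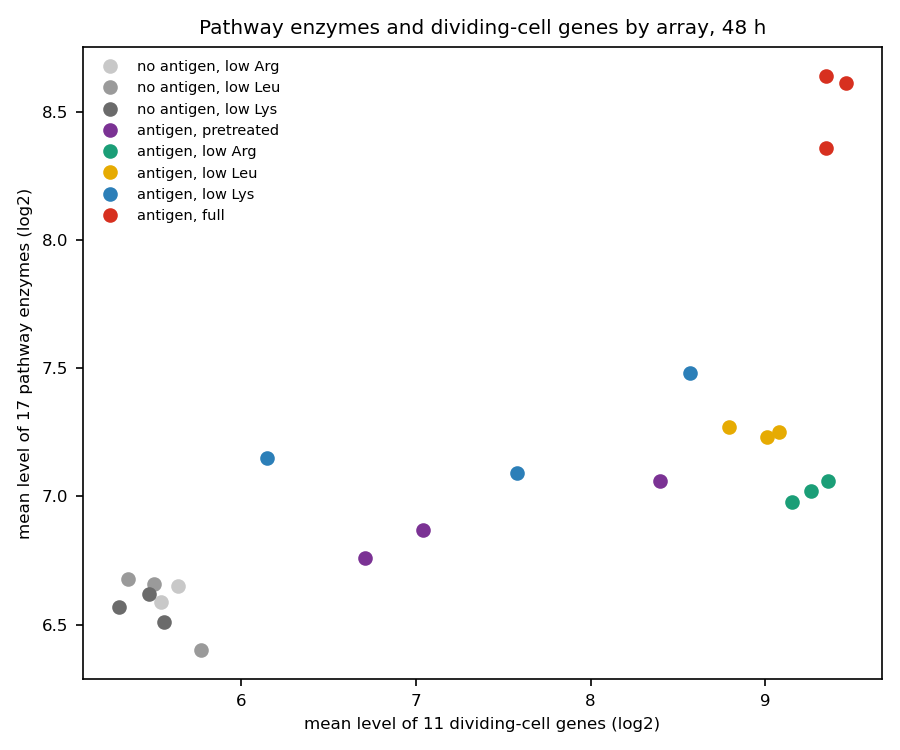
Mean RMA level (log2) of 17 measured pathway enzymes against that of 11 dividing-cell genes on each of the 23 arrays at 48 h, coloured by group. Low arginine and low leucine with antigen lie near full medium on the horizontal axis and more than 1 log2 unit below it on the vertical axis.

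Other cell markers gave these values beside the falls. On pretreated macrophages at 48 h, 5 of 7 markers of alternatively activated macrophages and 5 of 16 macrophage markers were higher, with list means of 6.92 against 5.18 and 6.69 against 6.20, and the part of macrophage RNA was not tested. In low lysine 4 of 5 B cell markers were higher, with arrays from 5.81 to 7.10 against 5.55 to 5.67 in full medium. In low arginine and low leucine the macrophage list averaged 6.16 and 5.94. The labels name no batch. They do give submitter sample numbers, and arrays were grouped here into stretches of consecutive numbers. Full-medium and low-medium arrays lie in separate stretches, so stretch and medium cannot be told apart, while pretreated and full-medium arrays share theirs.

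Between the low media with antigen the members differed little. Low arginine against low leucine gave no called member (0.712% of all genes called in either direction, limma), with 4 lower at an unadjusted p under 0.05. The replicate numbers in the titles paired these arrays, and with the number as a block 1 member was called, Fdps, lower in low arginine (-0.84, adjusted p = 0.0264). Low arginine against low lysine called 2 members (3.22% of all genes), Hmgcs1 (-0.82 ± 0.16, adjusted p = 0.00421) and Insig1 (-0.80 ± 0.16, adjusted p = 0.00623), both lower in low arginine. Low leucine against low lysine called 1 (1.88% of all genes), Insig1 (-1.0 ± 0.16, adjusted p = 0.00253). With only the compared groups in the fit neither of these 2 comparisons called a member, and without low lysine replicate 3 the second called 3. Without antigen no member differed between any pair of low media, where 0, 0.00451% and 0.00902% of all genes were called for arginine against leucine, arginine against lysine and leucine against lysine. At an unadjusted p under 0.05 these pairs had 1, 1 and 0 members (limma).

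Cells on pretreated macrophages in full medium were also set against each low medium with antigen. Against low arginine 1 member was called (3.37% of all genes), Cyp51, lower on pretreated macrophages by 0.57 ± 0.15 (adjusted p = 0.038), and the call was lost when any 1 array was left out. Against low leucine 5 were called (5.92% of all genes). Pmvk (-1.01 ± 0.23), Fdps (-0.98 ± 0.22), Cyp51 (-0.73 ± 0.15) and Fdft1 (-0.56 ± 0.14) were lower on pretreated macrophages and Insig1 was higher (0.68 ± 0.16, adjusted p = 0.0127). Leaving out 1 array moved this count to between 3 and 8, 3 without low leucine replicate 2 or 3 or pretreated replicate 2 and 8 without pretreated replicate 3. Against low lysine 2 were called (3.53% of all genes), Cyp51 (-0.91 ± 0.15, adjusted p = 0.000849) and Hmgcs1 (-0.80 ± 0.16, adjusted p = 0.00373), with 5 called without low lysine replicate 2 and none with only the compared groups in the fit.

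Antigen was also compared with no antigen in the same low medium. In low arginine 7 members were higher (17.2% of all genes) and 1 lower (12.2%). In low leucine 16 were higher (21.8%) and 1 lower (19.5%), and in low lysine 11 were higher (18.4%). Of these 8, 17 and 11 calls, 3, 11 and 9 were kept under every alternative run. Kept in low arginine were Fdft1, Sqle and Cyp51. Lost under some alternative in low leucine were Mvd, Ggps1, Msmo1, Ebp, Insig2 and Npc2, and in low lysine Hsd17b7 and Srebf1. In low arginine the member count is not far above that of all genes, and without either no-antigen array 4 members were called and without antigen replicate 1 or 3, 5. Member medians were 0.20, 0.50 and 0.42, beside all-gene medians of -0.12, -0.13 and -0.09. Centring each array on its median moved the all-gene medians to 0.11, 0.11 and 0.10 and the members called to 10, 19 and 15 higher with 0, 1 and 0 lower.

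Cyp51 rose by 1.46 ± 0.17, 1.25 ± 0.15 and 1.68 ± 0.15 in low arginine, leucine and lysine (adjusted p = 6.63e-07, 6.86e-07 and 1.26e-08). Sqle rose by 1.15, 1.20 and 1.47 and Fdft1 by 1.02, 1.27 and 0.78. The 3 genes, with Ebp, Sc5d and Scap, were called higher in all 3 media. In low arginine quantile normalization ended the calls of Ebp (adjusted p = 0.0917), Sc5d (0.131) and Scap (0.409), the mean over probe sets that of Scap (0.178), and leaving out 1 array those of Ebp in 4 fits, Scap in 2 and Sc5d in 1. In low leucine Ebp lost its call with quantile normalization (0.258), with only the compared groups fitted (0.054) and in 4 fits that left out an array. Hmgcs1 was called in low leucine (0.86 ± 0.16) and low lysine (1.58 ± 0.16) and not in low arginine (0.32), as was Fdps (1.20 and 0.93 against 0.15). Mvk, Lss, Tm7sf2 and Dhcr7 were not called in any of the 3, at -0.37 to 0.41.

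Insig1 went the other way. With antigen it was lower by 0.58 on the log2 scale in low arginine (SE 0.18, adjusted p = 0.0188, limma) and by 0.81 in low leucine (SE 0.16, adjusted p = 0.000357). Its arrays did not overlap in either, as was so for 60.1% and 51% of all genes. In low lysine Insig1 differed by 0.19 (-0.07 with quantile normalization) and was not called. With arrays centred on their median the low arginine difference was -0.36 and not called (adjusted p = 0.208). With antigen replicate 1 or 2 left out it was -0.55 and -0.52, and not called either (adjusted p = 0.0515 and 0.0637, limma). With no-antigen replicate 1 or 2 left out, which leaves 1 array in that group, it was -0.63 and -0.53. These sizes are given without a call, because a group of 1 array has no spread of its own. Whether the effect of antigen differed between the 3 media was tested with limma's F test over all genes. It called 33 genes (0.149%) and no member (0 to 2 with 1 array left out), with 3 members at an unadjusted p under 0.05: Hmgcs1 (adjusted p = 0.0526), Insig1 (0.121) and Fdps (0.351). In these comparisons 11, 11 and 10 of 11 dividing-cell genes were higher and 7, 9 and 6 of 16 macrophage markers lower, and their part was not tested.

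**Figure D5:**
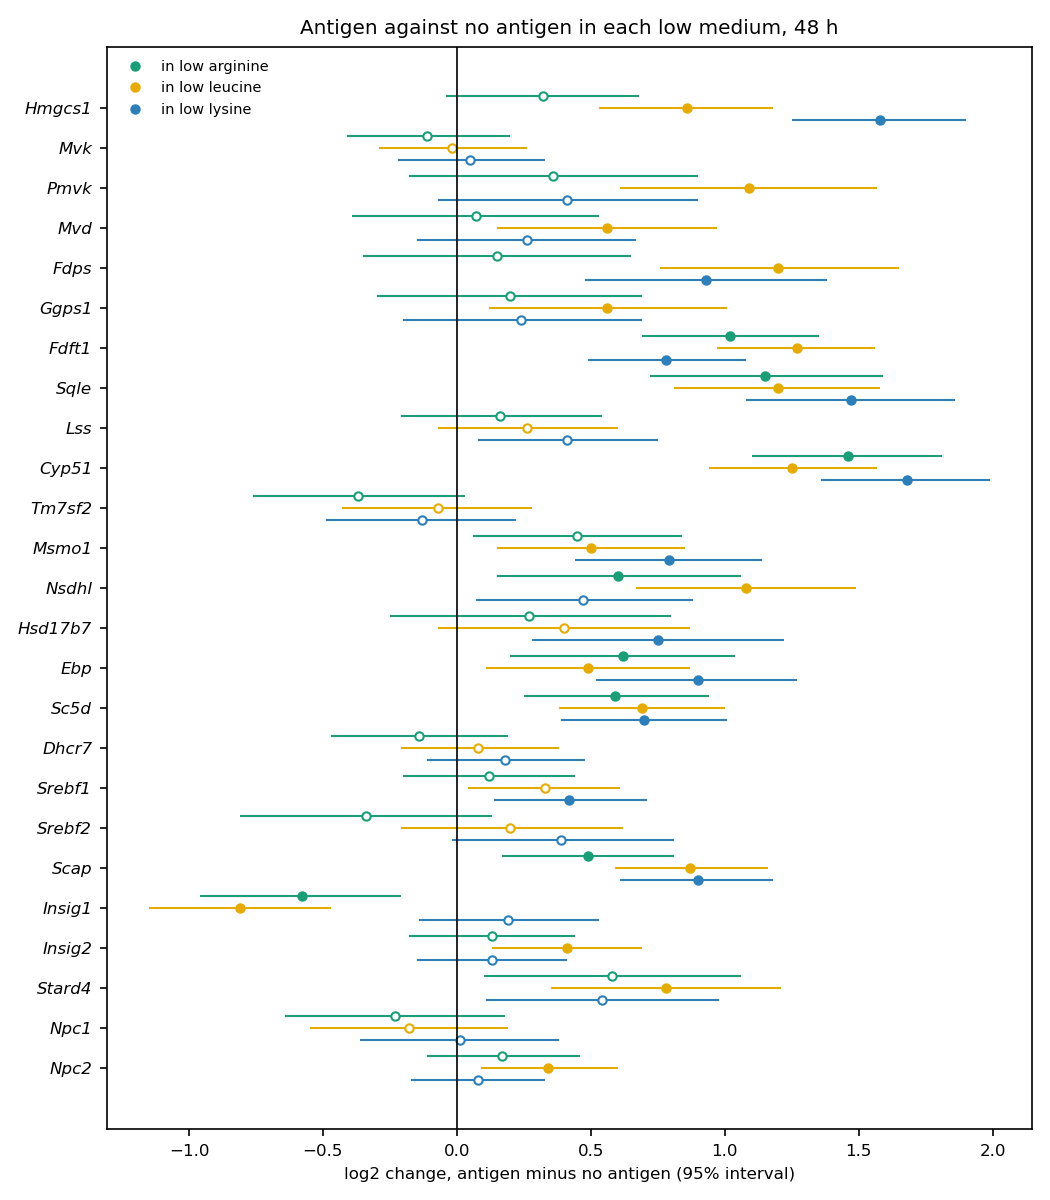
Log2 change of 25 members with antigen against no antigen in low arginine, low leucine and low lysine at 48 h; points are limma estimates, lines 95% intervals, filled points called at an adjusted p under 0.05. Cyp51, Sqle and Fdft1 lie right of 0 in all 3 media, and Insig1 lies left of 0 in low arginine and low leucine.

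Neighbouring pathways were counted from lists outside the 27 genes. Of 9 measured genes of fatty acid synthesis and desaturation, which SREBP factors also drive, 8, 8, 9 and 7 were lower in low arginine, low leucine, low lysine and on pretreated macrophages at 48 h, and 9 of 9 on pretreated macrophages at 72 h. Fads2, a desaturase, changed by -4.62, -4.90, -4.75 and -4.90 on the log2 scale at 48 h in that order (SE 0.21 each) and by -3.69 at 72 h (SE 0.25). Scd1, which desaturates stearate, changed by -4.60, -4.63, -3.83 and -4.21 (SE 0.29 each) and by -3.49 (SE 0.38). Among 8 measured genes of other sterol enzymes and handling, 2, 2, 3 and 3 were lower at 48 h and 3 at 72 h, led by Tmem97, a sterol-binding membrane protein (-1.86, -1.27, -1.33 and -2.45 at 48 h, -2.31 at 72 h), and Scarb1, a lipoprotein receptor.

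The steps that use isoprenoids moved less. Of 12 measured genes of dolichol, prenylation and quinone synthesis, 0, 0, 2 and 3 were lower in the 4 altered conditions at 48 h, with 3 and 0 lower at an unadjusted p under 0.05 in low arginine and low leucine (limma), and 1 at 72 h. Of 7 measured genes of SREBP proteolysis and sterol-regulated degradation, Erlin1 was higher in low arginine (0.64 ± 0.17) and low leucine (1.07 ± 0.17), and no other was called in the 4 comparisons. Of 6 measured LXR and oxysterol genes, which respond to surplus sterol, 2 were higher on pretreated macrophages at 48 h, the sterol exporters Abca1 (1.24 ± 0.17) and Abcg1 (0.68 ± 0.14), and 2 were lower in low leucine, Mylip (-0.86 ± 0.14) and Abcg1 (-0.77 ± 0.14). At 72 h 2 of 5 were higher on pretreated macrophages. Abca1 and Abcg1 are also expressed by macrophages, some of whose markers were higher on the same arrays. The part of macrophage RNA in these differences was not tested.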

How the data were processed

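RNA of sorted CD4+ cells was measured on 23 MoGene-2_0-st arrays (48 h) and 9 HT_MG-430_PM arrays (72 h). The authors deposited log2 values per probe set, computed by RMA (Affymetrix Expression Console 1.1), per the submitters' processing notes; which arrays were normalized together is not given in the sources used here. The annotation gave a single gene for 23521 of 41345 probe sets at 48 h (several for 1814, none for 16010) and for 28898 of 45037 at 72 h (551 and 15588). Only probe sets naming 1 gene were used, and a gene took the one with the highest mean. All groups of a platform were fitted together with limma 3.58.1 in R 4.3.3 (lmFit, eBayes with intensity trend), for 19 comparisons and 1 F test. P-values are two-sided and adjusted by Benjamini-Hochberg over all genes of the platform. The steps were tested on simulated data. Figures were made with Python 3.11.15, pandas 2.3.3 and matplotlib 3.10.9. The number of arrays limits precision, and no pair was identical.

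The members and lists were chosen with earlier results of these data known. All 27 members are named by step. Per-array values are given for a fixed set of 10 members and for those a comparison turned on. Each comparison names the 3 called members with the largest rise and fall and any called against the majority, and each other list at most 2 called genes. Where replicate numbers deviated together (correlation over 5000 genes above 0.1 in every pair), they paired the arrays. This held for pretreatment at 72 h (0.16 to 0.26) and, with antigen, between low arginine and low leucine (0.29 to 0.39). Alternatives changed the probe set summary, normalization, filter, trend, groups fitted, replicate block and a block of stretches of consecutive submitter sample numbers (inferred here, not named as batches), and left out each array.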

Additional observations from a re-analysis of the deposited data

Results flagged for a closer look

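No group had 4 or more arrays, so single arrays were not screened as outliers. For 6 members every array moved one way with antigen in full medium at 72 h and every array the other way in a low medium at 48 h, 6 of 23 on both platforms. Of all 15938 genes on both platforms 8.53% had such a pattern. The 2 settings differ in time, medium and array design, and the difference was not tested. Insig1 rose by 1.06 in full medium at 72 h and was at -0.58 in low arginine and -0.81 in low leucine at 48 h, all called. The low arginine call was lost with centred arrays (-0.36) and with antigen replicate 1 or 2 left out (-0.55 and -0.52). With no-antigen replicate 1 or 2 left out the difference was -0.63 and -0.53, given without a call. Npc2 was at -0.65 at 72 h and 0.34 in low leucine, both called. Its low leucine call was lost with quantile normalization (0.14, adjusted p = 0.386, limma) and with only the compared groups fitted (adjusted p = 0.07). It was also lost in 3 of 6 fits that left out an array. Srebf2 was at 1.44 at 72 h, called on 1 of its 2 probe sets, and at -0.34 in low arginine, not called. Tm7sf2 was at 0.79 and -0.37, Dhcr7 at 1.14 and -0.14 and Mvk at 0.46 and -0.11 at 72 h and in low arginine. Of these, Tm7sf2 and Dhcr7 were called at 72 h and none in low arginine.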

How the results depend on the processing

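The member counts for antigen and pretreatment at 72 h, for pretreatment and each low medium against full medium at 48 h, and for antigen in low leucine and low lysine stayed within 1.5 times under every alternative run, and no member that was called changed sign. With 1 array left out those counts ranged from 13 to 19 (antigen, 72 h), 17 to 19 (pretreatment, 72 h), 15 to 16 (pretreated against no antigen), 19 to 21 (pretreatment, 48 h), 18 to 19, 16 to 18 and 16 to 18 (low arginine, leucine and lysine), and 12 to 18 and 10 to 13 (antigen in low leucine and low lysine). Smaller counts moved. With 1 array left out, antigen in low arginine called 4 to 6 members in place of 8, the F test 0 to 2, low leucine against low lysine 1 to 3, pretreated against low arginine 0 throughout, against low leucine 3 to 8 and against low lysine 2 to 5; a group left with 1 array is assumed to vary like the others. With only the compared groups in the fit, low arginine against low leucine called 2, and low arginine or low leucine against low lysine and pretreated against low arginine or low lysine called 0. With genes above the median mean level, which all measured members passed, the F test called 1, low arginine against low leucine 1 and pretreated against low lysine 4. Quantile normalization gave 1 for the F test and 2 for low leucine against low lysine, and centred arrays gave 0 for pretreated against low arginine. With the replicate block the F test and low arginine against low leucine called 1 member each in place of 0, and every other count stayed within 1.5 times. The cause was not tested. Centring each array raised the called genes that were higher with antigen from 3812 of 6517 to 5141 of 5937 in low arginine, from 4830 of 9165 to 6472 of 7871 in low leucine, from 4086 of 6884 to 5316 of 6309 in low lysine and from 3545 of 6527 to 5078 of 7598 at 72 h. With means over probe sets, Srebf2 lost both its calls at 72 h, Sc5d that for antigen at 72 h, Msmo1 and Stard4 those against no antigen at 72 h and Scap that for antigen in low arginine.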
